A study of Homo sapiens with 6 samples.

Results

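Adenosines of messenger RNA that were read mainly as G after sodium borohydride (NaBH4) treatment, called A-to-G sites here, were examined in PANC-1, an established human pancreatic cancer cell line. A site was taken when its base was A and its reads with G, summed over the 3 treated libraries of a group, exceeded both its reads with C and its reads with T. This gave 409 of the 2353 sites in the deposited lists. The control list gave 234 of 1352 sites and the NAT10 knockdown list 175 of 1001 sites. The G reads therefore chose the sites, and their levels are a description and no test of whether A is read as G.

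The study compared 3 samples of PANC-1 cells with a control construct, titled shControl, and 3 with silenced NAT10, titled shNAT10. Both siRNA and shRNA are named in the labels, and the groups are referred to as control and NAT10 knockdown. Messenger RNA captured from 30 µg of total RNA was split into a small untreated portion and a larger one held in 100 mM NaBH4 at 55 °C for 30 min. Each sample has a treated and an untreated library, 12 in all, and nothing in the labels says whether the replicates were separate cultures, so the p-values measure only the spread between these samples.

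The enzyme NAT10 acetylates cytidines of RNA to N4-acetylcytidine. NaBH4 reduces this base, and reverse transcriptase then misreads the reduced cytidine, so the assay was made to find C read as T. Adenosine is read as G for another reason in many human transcripts: ADAR enzymes deaminate adenosine to inosine, which pairs like guanosine. Such editing is present in RNA without NaBH4, and ADARs edit poorly directly after a G.

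The letters around an A-to-G site are known here only where a site lay in a RefSeq promoter window of GRCh38.p14, from 250 bases before to 50 after a gene start. These were 9 sites, 4 of the control and 5 of NAT10 knockdown, and they are shown because the bases beside the adenosine bear on how the sites look. They were thus chosen by position near gene starts and do not stand for the other sites. Except upstream of ROGDI, the gene named is one whose span holds the site, which need not be the gene of the window. The window was that of PGBD3 for ERCC6, TMEM184C-DT for TMEM184C and PELO-AS1 for PELO. Each sequence runs 5′ to 3′ on the strand of the site, with the misread adenosine in capitals.
RSU1, control, chr10:16817375-16817394, minus strand: gcagggagtgAgggcagctg
EIF3F, control, chr11:7987367-7987386, plus strand: ggtaccagtaAgtgctcctc
MRPL12, control, chr17:81703373-81703393, plus strand: tccggctcgaAtgcccggcag
TMEM184C, control, chr4:147617466-147617486, plus strand: tactagcggaAtcgactgaag
ERCC6, NAT10 knockdown, chr10:49524317-49524337, minus strand: ggagactctgAgggtgaagag
CCDC86, NAT10 knockdown, chr11:60842103-60842123, plus strand: gtggaaacttAccggctgagc
LARP6, NAT10 knockdown, chr15:70853907-70853927, minus strand: gggcagcgcgAgcgaggagga
upstream of ROGDI, NAT10 knockdown, chr16:4802625-4802645, minus strand: aggaccgaggAcagaaagatt
PELO, NAT10 knockdown, chr5:52800199-52800219, plus strand: gagagaggaaAggatagagga

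The base before the adenosine was G in 4 of these 9 sequences, A in 4, T in 1 and C in 0. The base after it was G in 5, C in 2 and T in 2. Other listed adenosines in such windows had G before them in PRDX3, FBXO2 and AP3S1, and C in CNPY2, PSMD9 and another site of RSU1. Their windows were those of FBXO44 for FBXO2, CNPY2-AS1 for CNPY2 and HPD for PSMD9. With so few sequences, no preference for a neighbouring base can be read from these counts. The A-to-G site lay 41 bases past the start in RSU1, an adhesion protein, and 41 past it in EIF3F, a subunit of translation initiation factor eIF3. In MRPL12, a protein of the mitochondrial ribosome, it lay 17 past the start. In CCDC86 it was base 1 of the transcript. The site labelled upstream of ROGDI lay in no annotated gene span, at position -2 from the start of ROGDI. Where the other sites lie relative to exons, untranslated regions and coding sequence was not analysed here. None of the sites lay in a RefSeq microRNA hairpin, 0 in either list.

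A-to-G sites formed like shares of the listed adenosines in both groups. They were 44.7% of 524 adenosines in the control (95% Wilson interval 40.45 to 48.9) and 44.9% of 390 in NAT10 knockdown (40.01 to 49.8). Adenosines read mainly as T were about as many, 231 for the control and 171 for NAT10 knockdown. Those read mainly as C were 39 and 27, and 20 and 17 had no single leading base. NAT10 knockdown had 0.748 times as many A-to-G sites as the control, with an interval of 0.615 to 0.910 that covers counting error only. Each list was made jointly from 3 replicates, so the ratio has no replicate check.

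Many sites met the rule by few reads. Just inside it in the control lay a site of HERC4, with 4 reads of G, 3 of C and 3 of T, and one of DNAJB12, with 7, 3 and 6. Just outside lay NOTCH2, with 8 reads of G, 0 of C and 8 of T, and NPAT, with 5, 5 and 2. In NAT10 knockdown the sites just inside were TRAPPC3, with 5, 4 and 4, and NBPF9, with 6, 0 and 5. Those just outside were KCTD3, with 6, 6 and 0, and DDB1, with 8, 8 and 6. A lead of 1 read decided 18 sites of the control and 26 of NAT10 knockdown.

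The number of sites fell under stricter readings of the same rule. G led in each of the 3 treated libraries at 106 sites of the control list and 61 of the knockdown list. At least 3 reads of G in every treated library were found at 88 and 58 sites. G was read in all 3 treated libraries at 201 and 144 sites, and in 2 of them at 33 and 30. G was the only other base at 45 sites of the control and at 30 with NAT10 knockdown, G and T occurred together at 97 and 87, G and C at 17 and 11, and all 3 other bases at 75 and 47. At the median site, 77.8% of the mismatched reads carried G in the control, against 71.4% with NAT10 knockdown.

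The A-to-G level, the percent of a library's reads at a site that carry G, was low at most sites. Its median over the 234 control sites was 1.85%, 1.56% and 1.81% in replicates 1 to 3, a mean of 1.74 ± 0.157% (SD, n = 3). Over the 175 sites of NAT10 knockdown it was 1.961%, 1.55% and 1.504%, a mean of 1.67 ± 0.251% (SD, n = 3). The replicates of the groups overlapped. No p is given for these medians, since the lists hold different sites, the G reads chose them, and both lists have the same lower edge of mismatched reads described below.

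**Figure D1:**
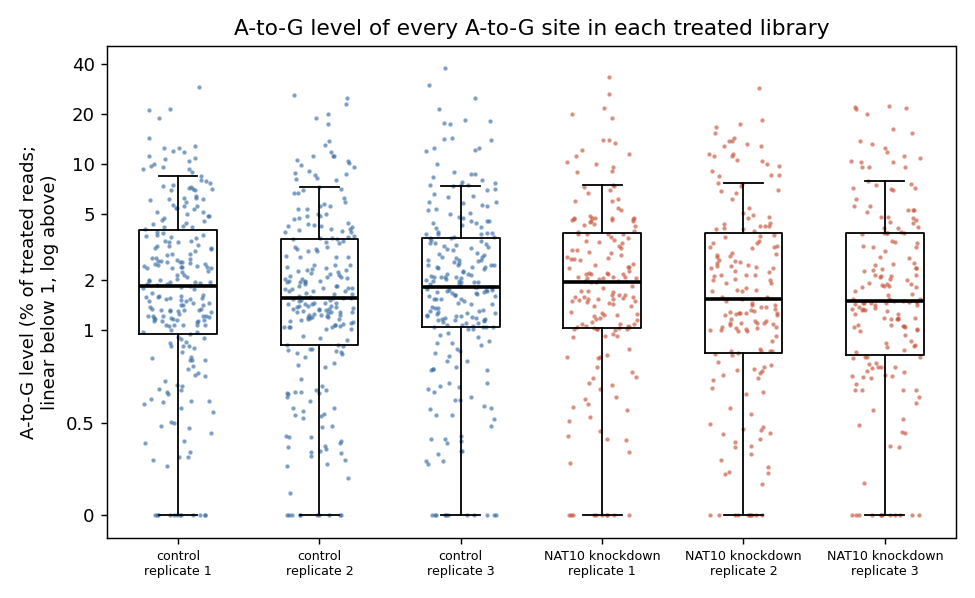
A-to-G level in percent of treated reads (linear below 1, logarithmic above) of every A-to-G site in each treated library, with 234 sites in the 3 control libraries and 175 in the 3 NAT10 knockdown libraries. Points are sites, boxes span the quartiles, thick lines are medians and whiskers reach the last point within 1.5 box lengths. The medians lie between 1.504% and 1.961% in all 6 libraries.

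Averaged over the treated libraries of a site, the level ran from 0.422% to 22.2% in the control, with quartiles of 1.04% and 3.84%. With NAT10 knockdown it ran from 0.458% to 28.0%, with quartiles of 1.07% and 3.72%. Read depth moved with the level. Control sites under 1% had a median of 1098 treated reads and those at 10% or more 85.5, and in NAT10 knockdown the medians were 1157.5 and 109 reads. G was the only other base at 0 of 52 control sites under 1% and at 7 of 12 sites at 10% or more. In NAT10 knockdown this held for 0 of 38 and 9 of 14 sites. Every listed A-to-G site had at least 3 mismatched reads in each treated library, so a shallow site could be listed only with a high mismatch level. Any part of depth in the level beyond this was not tested.

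The lists themselves set a lower edge. Every A-to-G site had at least 3 mismatched reads in each treated library, and the lowest median mismatch level was 1.02% in both lists. The untreated libraries held 0 mismatched reads among 675309 reads at all control sites and 0 among 556802 at all sites of NAT10 knockdown. A listed site therefore has no untreated mismatch at all, which is a property of the lists. For a single site, a count of 0 in the untreated reads allowed a level of up to 3 reads of their total, with a median of 0.715% in the control and of 0.688% for NAT10 knockdown. These limits and all intervals cover counting error only.

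The treated level, pooled over the libraries, lay above that limit at 232 of the 234 sites of the control and at 174 of the 175 with NAT10 knockdown. The exceptions were ZNF787 and SFPQ in the control and YWHAB in NAT10 knockdown, named after their values were seen. Every treated library was above the limit at 145 and 110 sites. The lists and the rule largely set these counts. Listed A-to-G sites held 0 mismatched untreated reads and at least 3 mismatched reads in each treated library, and the G reads chose them. The counts are thus a description and no test against untreated RNA.

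**Figure D2:**
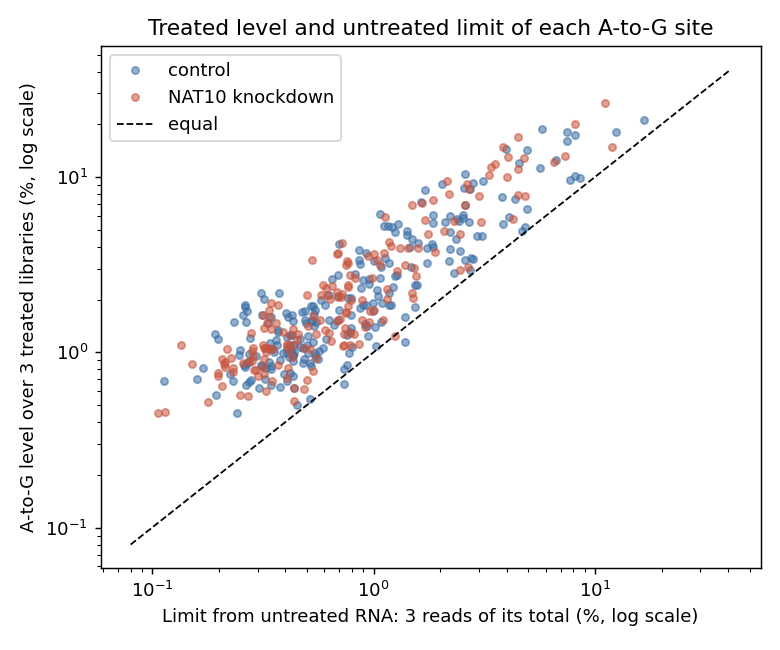
A-to-G level over the 3 treated libraries of each A-to-G site against the limit that 3 reads of its untreated total would give, both in percent on logarithmic axes, with the dashed line marking equal values. All but 2 of the 234 control sites and 1 of the 175 sites of NAT10 knockdown lie above the line. The rule and the lower edge of the lists largely set this. Sites with a high limit also have a high level, and shallow sites are listed only with a high mismatch level.

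The highest levels were found at shallow sites, where the lists hold only high mismatch levels. Among control sites with at least 10 reads in every library, SUMO3, a ubiquitin-like modifier, was highest (chromosome 21, position 44806645, minus strand). G was read in 4 of 19, 3 of 37 and 6 of 16 treated reads, which gave levels of 21.1%, 8.11% and 37.5%. Their Wilson intervals were 8.51 to 43.3%, 2.80 to 21.3% and 18.5 to 61.4%, and the untreated libraries held 40 reads.

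DFFA, the inhibitor of a caspase-activated nuclease, followed with 3 of 55, 13 of 52 and 9 of 65 reads (chromosome 1, position 10458783). Its mean was 14.8 ± 9.81% (SD, n = 3). E2F7, a repressor of the E2F family of cell cycle regulators, had 3 of 31, 3 of 27 and 4 of 22 reads, a mean of 13.0 ± 4.55% (SD, n = 3). At none of these 3 control sites was any base other than A or G read, and replicates of a site differed by several fold at SUMO3 and DFFA.

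Zinc finger genes held 3 of the 10 highest control sites, 2.56% of all A-to-G sites and 1.63% of all listed sites of the control. ZNF860 stood at 14.0 ± 14.1%, ZNF644 at 12.7 ± 7.56% and ZNF780B at 9.79 ± 2.701% (SD, n = 3 each). At ZNF860 the SD was as large as the mean, with 2 of 20, 1 of 44 and 8 of 27 reads. SUSD5 (10.4 ± 9.55%), MRPL45 of the mitochondrial ribosome (9.97 ± 3.83%), MAP3K11, a kinase upstream of JNK (9.10 ± 4.43%), and WDR81 (9.07 ± 4.28%) completed the 10. SUSD5 had G in 2 of 16 and 3 of 16 reads of replicates 1 and 2 and in 0 of 17 of replicate 3.

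In NAT10 knockdown, TMED5, a cargo protein of transport between endoplasmic reticulum and Golgi, was highest (chromosome 1, position 93152484, minus strand). It had 5 of 23, 2 of 12 and 4 of 20 reads, a mean of 19.5 ± 2.58% (SD, n = 3), so its replicates lay close together. NASP, a histone chaperone, had 3 of 26, 4 of 23 and 6 of 28 reads and a mean of 16.8 ± 4.97%. FBXW11, the substrate-binding part of a ubiquitin ligase, had 3 of 33, 5 of 38 and 8 of 37 reads and a mean of 14.6 ± 6.39%.

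The next were BACE1, the β-secretase (13.6 ± 11.2%), SGPL1, the lyase of sphingosine-1-phosphate (13.3 ± 5.78%), CEBPZOS (13.1 ± 8.64%) and HSPG2, the basement membrane proteoglycan perlecan (12.4 ± 5.87%). SPART (12.4 ± 2.93%), the kinase STK25 (12.0 ± 2.15%) and SFXN1, a mitochondrial serine transporter (10.9 ± 3.12%), came after them.

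**Figure D3:**
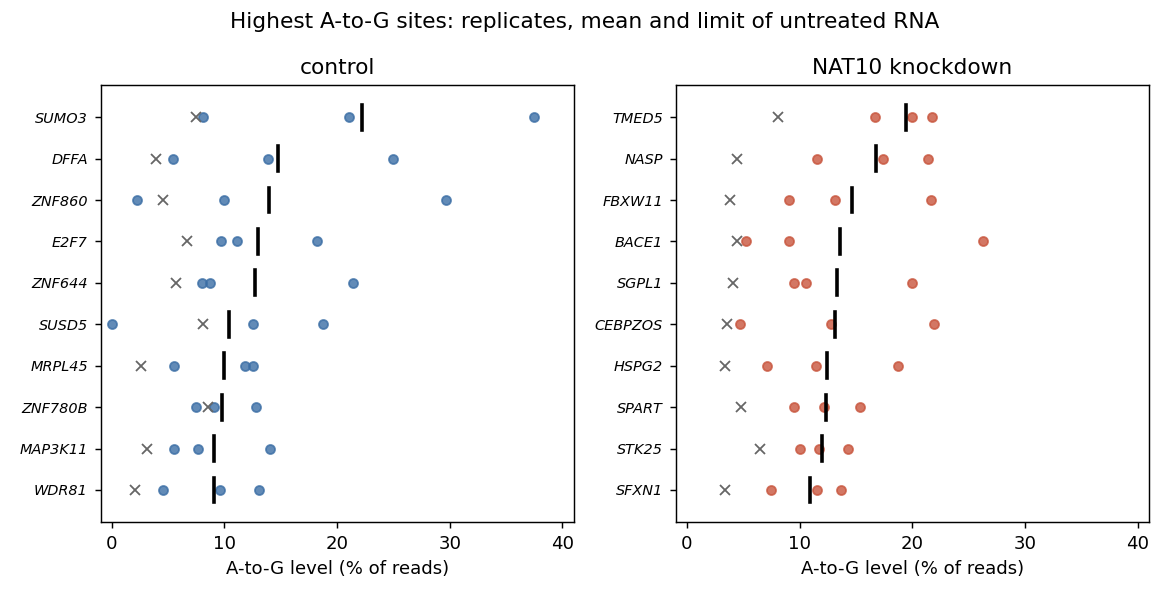
The 10 A-to-G sites with the highest mean level in each group among sites with at least 10 reads in every library, with the level in percent of reads in each of the 3 treated libraries (points), their mean (bars) and the limit of 3 reads of the untreated total (crosses). The control site of SUMO3 spans 8.11% to 37.5%, and the site of TMED5 in NAT10 knockdown spans 16.7% to 21.7%.

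Sites under that depth reached as high. SEC14L1 in NAT10 knockdown had 4 of 12, 4 of 14 and 6 of 27 reads with G and a mean of 28.0 ± 5.57% (SD, n = 3), but only 27 untreated reads. CPT1A, the carnitine palmitoyltransferase that admits fatty acids to mitochondria, had G in 17 of 144, 29 of 127 and 22 of 103 control reads. Its level of 18.7 ± 5.99% stood beside 24 untreated reads, which allow up to 12.5%, and replicate 1, at 11.8%, lay under that limit. Both were named after their values were seen.

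The 5 deepest sites of each group had levels below the median over its sites. In the control, SYNCRIP, an RNA-binding protein, had 7 of 765, 1 of 838 and 9 of 862 reads with G, a mean of 0.693 ± 0.501% (SD, n = 3). SNF8 of the ESCRT machinery stood at 0.819 ± 0.422%, AHNAK2 at 0.728 ± 0.476%, DNAJC17 at 1.33 ± 1.16% and the homeobox factor PBX2 at 0.972 ± 0.0979%. PBX2 had 6 reads with G in each library, while SYNCRIP and DNAJC17 varied several fold.

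In NAT10 knockdown, SCAMP3 had 3 of 879, 2 of 873 and 7 of 872 reads with G, a mean of 0.458 ± 0.304% (SD, n = 3). PSMD7 of the proteasome lid stood at 0.475 ± 0.413%, the cytoskeletal linker DST at 0.498 ± 0.556%, MICALL1 at 0.735 ± 0.203% and TECR, an enzyme of fatty acid elongation, at 0.858 ± 0.144%. PSMD7 and DST each had 1 library with 0 reads of G.

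Whether the libraries of a group agreed at a site was tested from how the G reads divide among them, which the rule did not use. Sites with fewer than 3 mismatched reads in a treated library are not in the lists, and the test takes no account of that, so it describes listed sites only. With an exact conditional test and Benjamini-Hochberg adjustment over all listed sites, 0 of the 234 control sites differed between replicates, where 0% of all control sites did. At an unadjusted exact p under 0.05 there were 22 of 234, beside 118 of all 1352 control sites, and a chi-square test gave 0 after adjustment. In NAT10 knockdown 3 of 175 sites differed, 1.71%, against 0.699% of all its sites. A chi-square test called 4, adding COL1A1, beside 8 of all 1001 sites. At an unadjusted exact p under 0.05 there were 25 of 175, beside 106 of all 1001 sites. Reads were also simulated at these depths, with the level of replicate 1 raised at some sites. A 3-fold rise was called at 19% of these sites in the control and at 22% in NAT10 knockdown. A 6-fold rise was called at 84% in both. Among unchanged simulated sites, 3 of 1152 and 2 of 801 were called. The simulated reads had no lower edge of 3 mismatched reads, so these rates may differ at listed sites.

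The 3 sites were in WWTR1, PDLIM7 and MCL1. WWTR1, the transcriptional coactivator TAZ, had G in 6 of 385, 2 of 429 and 10 of 134 reads (exact test, adjusted p = 0.0134). PDLIM7 had 9 of 171, 1 of 153 and 0 of 272 (exact test, adjusted p = 0.0160). MCL1, an inhibitor of apoptosis, had 8 of 174, 0 of 166 and 0 of 223 (exact test, adjusted p = 0.0250). Replicate 3 was high at WWTR1 and replicate 1 at PDLIM7 and MCL1. Without replicate 1 only WWTR1 was called, and without replicate 2 or replicate 3 none of these sites was. These calls compare libraries and not conditions.

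Measures that use every listed adenosine, and so do not depend on which sites the rule kept, had replicates that overlapped between the groups. Of all mismatched reads, 42.0%, 41.5% and 43.7% carried G in the control replicates and 45.5%, 42.2% and 41.8% in those of NAT10 knockdown. The means were 42.4 ± 1.18% and 43.2 ± 2.01% (SD, n = 3 each; two-sided exact permutation p = 0.6, where 3 against 3 samples allow no value below 0.1). T made up 46.2 ± 1.74% and 45.4 ± 1.57% (exact p = 0.5) and C 11.4 ± 0.610% and 11.4 ± 0.851% (exact p = 1). The A-to-G level over all listed adenosines was 0.809 ± 0.0365% for the control and 0.810 ± 0.0330% for NAT10 knockdown, given with no p because the lower edge of the lists bounds it too. Each p of the 3 shares was 1 after Benjamini-Hochberg adjustment over the 6 measures computed. Each library was summed over the list of its own group, the lists hold different sites, and the rule used these reads too. The p-values thus describe the lists and cannot show whether knockdown changed how adenosine is read.

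**Figure D4:**
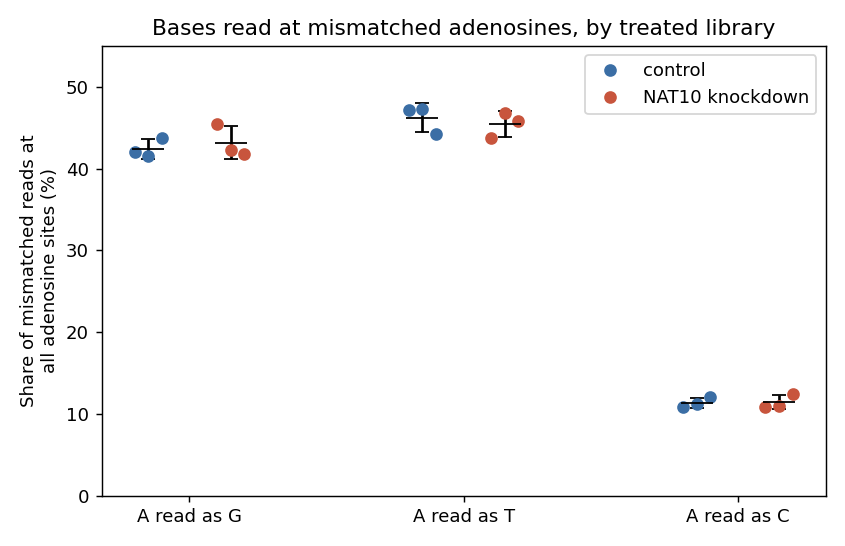
Share of the mismatched reads at all listed adenosines that carry G, T or C, in percent, in each of the 3 control and 3 NAT10 knockdown treated libraries (points), with the mean and SD. G makes up 41.5% to 45.5% of the mismatched reads in the 6 libraries, T takes a similar share and C about 11.4%.

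The ratio of treated to untreated reads did not overlap between the groups, at A-to-G sites and over all listed sites. Treated over untreated reads at the A-to-G sites were 1.36, 1.25 and 1.17 in the control replicates and 1.06, 1.17 and 1.12 in NAT10 knockdown. The means were 1.26 ± 0.0952 and 1.11 ± 0.0543 (SD, n = 3 each). The lowest control value lay just above the highest of NAT10 knockdown, with exact permutation p = 0.1, the smallest possible, and 0.6 after that adjustment. Over all listed sites the ratio was 1.48, 1.32 and 1.25 in the control and 1.13, 1.22 and 1.19 in NAT10 knockdown, so the separation was not particular to A-to-G sites. The treated libraries held 48695, 51719 and 51133 reads at these sites in the control and 38964, 38316 and 36212 in NAT10 knockdown. These totals cover the A-to-G sites only, 234 in the control and 175 in NAT10 knockdown. They are sums over unlike numbers of sites and do not compare depth per site.

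A-to-G sites were shallower than adenosines read mainly as T. The medians were 594.5 against 824 treated reads for the control and 545 against 819 for NAT10 knockdown. Over all listed sites the medians were 588 and 567, near those of the A-to-G sites. Adenosines read mainly as C had medians of 527 and 620. A-to-G sites lay on both strands, 121 on plus and 113 on minus in the control and 84 and 91 in NAT10 knockdown. All listed sites divided into 706 and 646 in the control and 489 and 512 in NAT10 knockdown. In the control 232 and in NAT10 knockdown 172 A-to-G sites lay within a protein-coding gene, as did 1336 of all 1352 and 984 of all 1001 listed sites. Where the strand of the gene was known, 205 control A-to-G sites lay on it and 2 opposite, and in NAT10 knockdown 156 and 0. Over all listed sites these were 1160 and 7 in the control and 854 and 1 in NAT10 knockdown.

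Within 2000 bases of the gene's 3′ end lay 24.2% of the control sites (48 of 198, 95% Wilson interval 18.8 to 30.7), against 14.2% of adenosines read mainly as T (10.0 to 19.8). In NAT10 knockdown the shares were 20.3% (31 of 153, 14.7 to 27.3) and 17.9% (12.5 to 24.98). Over all listed sites they were 19.1% (16.9 to 21.5) in the control list and 20.9% (18.2 to 23.7) in the knockdown list. The intervals overlapped in both groups, and no test was made of them.

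Some A-to-G sites had another listed site close by. Within 10 bases on the same strand this held for 22 control sites, 9.40% (95% Wilson interval 6.29 to 13.8), and for 11 sites of NAT10 knockdown, 6.29% (3.55 to 10.9). The other listed adenosines had one in 12.4% and 7.91%, and all listed sites in 13.7% and 11.9%. The neighbouring bases were of every kind, with 13 A, 9 C, 5 G and 8 T among 35 control pairs and 4 A, 8 C, 5 G and 3 T among 20 pairs of NAT10 knockdown. Among sites averaging 5% or more, 6 of 45 in the control and 4 of 32 in NAT10 knockdown had a neighbour.

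In part of these pairs, the numbers of mismatched reads matched library by library. At TRIP12, a ubiquitin ligase, an A-to-G site with 3, 7 and 7 mismatched reads had a G read as T, a C read as G and a T read as A within 4 bases, each with 3, 7 and 7. At PTP4A1, a phosphatase, 4, 3 and 4 reads recurred at 4 neighbours. FBXW11 in NAT10 knockdown had 3, 5 and 8 at its A-to-G site and at a pair of cytidines 4 and 5 bases downstream, one read as T and the other as G. HSPG2 had 6, 4 and 4 at its site and at the adjacent cytidine read as T. Of the 20 sites with the highest levels named above, MAP3K11, FBXW11 and HSPG2 are among those with such a neighbour.

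How many pairs matched depended on how a match was counted, and the definitions were set after the data were seen. With all mismatched reads of both sites equal in the 3 treated libraries, 11 of 35 control pairs and 4 of 20 pairs of NAT10 knockdown matched, at 6 and 3 A-to-G sites. With only the leading base of each site counted, 23 and 8 pairs matched, at 13 and 5 sites. With the G reads set against all mismatched reads of the neighbour, 16 and 7 matched, at 11 and 5 sites. Whether the same molecules carried both mismatches is not shown by these lists.

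**Figure D5:**
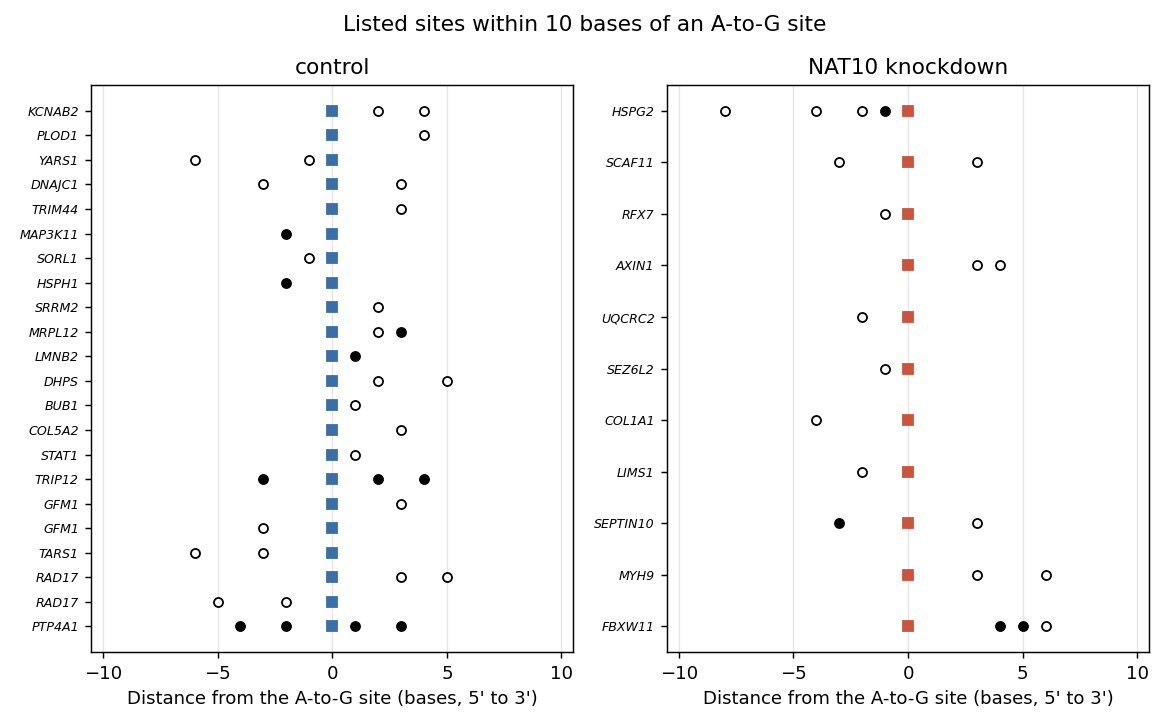
Listed sites (circles) within 10 bases of each A-to-G site that has one (squares at 0), by distance in bases on the strand of the site, for 22 sites of the control and 11 of NAT10 knockdown. Filled circles have the same number of mismatched reads, over all bases, as the A-to-G site in each of the 3 treated libraries, 11 of 35 in the control and 4 of 20 in NAT10 knockdown.

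Pairs of A-to-G sites were rare. Within 1000 bases there were 6 in the control and 2 in NAT10 knockdown. In GFM1, a mitochondrial elongation factor, the sites lay 3 bases apart and both had 4, 3 and 4 reads with G. In RAD17, a DNA damage checkpoint protein, they lay 5 bases apart with 8, 6 and 3 reads at both. The sites of BAD, a promoter of apoptosis, lay 64 bases apart with unlike counts, 9, 3 and 9 against 4, 5 and 12. TJP1, CDC5L and DELE1 held the other control pairs, and SLC29A1 and MCL1 those of NAT10 knockdown.

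The lists shared no A-to-G position, 0 of 234 and 0 of 175, and no pair of sites across the lists lay within 10 bases. The same held for these A-to-G sites against sites of any base in the other list, with 0 at the same position and 0 within 10 bases. Whether listed sites of other bases recur between the lists was not analysed here. Within 100 bases of a site of any base lay 5 and 3 A-to-G sites. Pairs of A-to-G sites within 100 bases numbered 2. MAP3K4, a stress-activated kinase, had sites 29 bases apart with like levels, 3.30 ± 1.19% for the control and 3.40 ± 1.02% for NAT10 knockdown (SD, n = 3 each). SCAF1 had sites 28 bases apart, at 0.968 ± 1.16% and 1.66 ± 0.431%. Depth at positions outside a list is not known, so absence from a list is not a level of 0.

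By gene, 10 were shared, 4.12% of the 243 genes of the control and 5.88% of the 170 of NAT10 knockdown. The share of genes common to both lists over all listed sites was not analysed here. Whether this overlap is particular to A-to-G sites is thus not known. Besides MAP3K4 and SCAF1 these were DST, DYNC1LI2, MAVS, PRPF8, RNF213, SYNCRIP, TRIP12 and ZNF780B. MAVS, the mitochondrial adaptor of antiviral RNA sensing, had sites 4890 bases apart, at 5.44 ± 1.08% for the control and 13.5 ± 2.88% for NAT10 knockdown. ZNF780B stood at 9.79 ± 2.701% and 0.887 ± 0.271% at positions 24049 bases apart. These are different positions of a transcript and not one site in both groups.

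Gene lists gave few members each. The A-to-I editing enzymes held no listed site in either group, 0 and 0. Genes known for A-to-I editing held 0 A-to-G sites among 1 control site and 3 sites of NAT10 knockdown, with 0 adenosines in both lists. Of proteins that write, erase or read N6-methyladenosine, the control had the reader YTHDF2, at 3.43 ± 1.67%, and the eraser ALKBH5, at 0.526 ± 0.457%. They were 0.855% of the control A-to-G sites, beside 0.222% of all listed sites. NAT10 knockdown had 0, but its list held 0 adenosines in these genes. Glycolysis genes and the genes the study followed had 0 A-to-G sites in both groups. Each of these 2 lists held only 1 listed adenosine in the control and 0 in NAT10 knockdown.

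Aminoacyl-tRNA synthetases, which charge tRNA with amino acids, held 5 A-to-G sites among 7 listed adenosines in the control, where 44.7% of all listed adenosines were A-to-G sites. They were 2.14% of the A-to-G sites, and such genes held 1.26% of all listed sites. These were TARS1 (1.99 ± 0.269%), CARS1 (1.86 ± 0.0519%), MARS1 (1.63 ± 0.531%), YARS1 (1.26 ± 0.392%) and SARS1 (0.653 ± 0.598%). Their median of 1.63% stood beside 1.70% over all A-to-G sites of the control. In NAT10 knockdown only EPRS1 was one, at 3.10 ± 0.662%, among 3 adenosines. It was 0.571% of the A-to-G sites there, beside 0.300% of all listed sites in such genes. Genes with the symbol prefix of translation factors held 3 in the control. These were the initiation factor subunits EIF3F and EIF3I, and EIF2AK3, a kinase of initiation factor eIF2. In NAT10 knockdown they held 1, ETF1. Such genes held 1.28% and 0.571% of the A-to-G sites, beside 0.666% and 0.599% of all listed sites. Ribosomal proteins held 1 in the control, RPL7L1, 0.427% beside 0.370% of all listed sites. They held 0 in NAT10 knockdown, whose list held 0 adenosines in these genes.

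Splicing factors held 1 A-to-G site in the control, in PRPF8, the core protein of the spliceosome, and 5 in NAT10 knockdown, among them 2 in PRPF8 and those in HNRNPLL and SF3B1. They were 0.427% of the control sites, where 1.11% of all listed sites were in such genes, and 2.86% against 2.20% in NAT10 knockdown. RNA helicases held 1 in each group, DHX15 in the control and DDX47 in NAT10 knockdown. They were 0.427% and 0.571% of the A-to-G sites, beside 0.962% and 0.799% of all listed sites. Zinc finger genes held 6 and 4, with medians of 7.73% and 1.33% beside 1.70% and 1.77% over all A-to-G sites. The 6 control sites had 62 to 435 treated reads, all below the median of 594.5 over the A-to-G sites of the control. Zinc finger genes held 2.29% of the A-to-G sites of NAT10 knockdown and 1.499% of all its listed sites.

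Solute carriers held 3 and 5, with SLC35E1 the highest at 15.6 ± 3.10% in the control. They were 1.28% of the control A-to-G sites and 2.86% of those of NAT10 knockdown, beside 1.85% and 1.40% of all listed sites. Proteasome and ubiquitin genes held 4 and 5, 1.71% and 2.86% beside 1.55% and 2.697% of all listed sites. Chromatin modifiers held 3 and 3, 1.28% and 1.71% beside 1.55% and 1.30%, and focal adhesion and actin genes 1, in ROCK1, and 2, in MYH9 and in a span shared by ITGA1 and PELO, 0.427% and 1.14% beside 0.814% and 1.20%. Sites on chromosomes 7, 8, X or Y were not analysed here, and chromosome 9 held only 1 listed site, so the counts hold for the remaining chromosomes.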

How the data were processed

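Messenger RNA of 3 control and 3 NAT10 knockdown PANC-1 samples was sequenced with and without NaBH4. The submitters' processing notes name fastp 0.23.1, STAR 2.7.6a, featureCounts and GRCh38, without their roles. The authors removed duplicates by molecular identifiers and listed sites jointly over replicates. The deposited counts give reads with A, C, G and T per site and library. The authors also deposited the fraction of mismatched reads per library, which follows from these counts, and levels were computed here from the counts themselves. The deposited p-value of each site was used only as a filter at 0.01. Where a site lay in a RefSeq promoter window, its base matched GRCh38.p14 (75 of 75 control sites and 28 of 28 of NAT10 knockdown). Gene names came from RefSeq spans.

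Levels, exact permutation tests, an exact conditional test between replicates with adjusted p under 0.05, and 95% Wilson intervals were computed in Python 3.11.15 with numpy 2.4.6, scipy 1.17.1 and pandas 2.3.3, and figures with matplotlib 3.10.9. The conditional test was tested on simulated data. Genes were named from the 10 highest sites with at least 10 reads in every library, the 5 deepest, close pairs, genes in both lists, the gene lists and the edge of the rule. Members and lists were chosen with earlier results of these data known. Equal reads at neighbours were counted by 3 definitions, revised after their counts were seen, and all 3 are given. The name of 1 gene is not reported here.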

Additional observations from a re-analysis of the deposited data

How the results depend on the processing

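Over 15 results and 106 alternatives, 83 left the result as it was, 19 moved it and 4 turned its direction. The replicate blocks are among the 83, though a block leaves a difference of means as it is. Requiring G to lead in each of the 3 treated libraries left 106 and 61 A-to-G sites, 20.2% and 15.6% of the adenosines in control and NAT10 knockdown. Requiring at least 3 G reads in every treated library left 88 and 58, or 16.8% and 14.9%, and 3 genes in both lists. With at least 50 reads in every library the control share was 40.2%. Leaving out a replicate gave shares of 39.7% to 43.3% in NAT10 knockdown, the lowest without replicate 1. The difference in median level, NAT10 knockdown minus control, turned to 0.137 percentage points as a mean over sites and to 0.0336 without sites that have a neighbour, an alternative chosen after seeing the data. Leaving out a replicate gave -0.216 to 0.0128, the last without replicate 3 of NAT10 knockdown. The difference in the G share of mismatched reads ran from -0.388 to 1.45 percentage points, negative only without replicate 1 of NAT10 knockdown. Leaving out a replicate of NAT10 knockdown gave 0 to 1 sites differing between replicates, against 3 with all replicates, 3 at 50 reads or more and 4 with a chi-square test. With neighbours limited to A-to-G sites, 1.71% and 0% of the sites had one. Equal neighbour pairs, 11 and 4 by all mismatched reads, were 23 and 8 by the leading base and 7 in NAT10 knockdown by G against all mismatched reads, both definitions chosen after seeing the data. The cause of these changes was not tested.

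With the replicate number as a block, the difference in median level was -0.0712, which a block of equal groups cannot change. The exact p was 0.75 for the G share (0.765) and 0.25, the smallest possible, for treated over untreated reads (-0.149). No call could change, since the smallest p is 0.25 with the block and 0.1 without it, both above 0.05. Whether the numbers pair the samples could not be checked, since the lists share no A-to-G site.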
